A study of Mus musculus with 2 samples.

Results

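Promoters with few CpG dinucleotides were examined where they carried a DNase I-hypersensitive site in the embryonic mouse hindbrain in both of 2 libraries. A peak was taken when it lay in replicate 1, overlapped a replicate 2 peak by at least 1 bp, and had its midpoint within 1 kb of the outermost transcription start site of a protein-coding gene. The gene had to have a CpG observed/expected ratio under 0.35 from 500 bp before to 500 bp after that start, and no start of another protein-coding gene could lie within 1 kb of the midpoint. This left 1148 peaks at 869 genes, out of 111722 shared peaks and 21938 protein-coding genes. The tissue was hindbrain of B6NCrl embryos at embryonic day 14.5, with males and females pooled, in 1 group. The 2 libraries are labelled as biological replicates from separate tissue samples and carry the same donor label. Replicate 1 held 263679 peaks and replicate 2 held 148804, all 150 bp wide, and the read depth behind them is not given in the sources used here. All of 15 hindbrain marker genes, among them Hoxb2, En1 and Atoh1, had a shared peak within 1 kb of any annotated start, as did 64.6% of all protein-coding genes. Of the 15, 10 had a ratio of 0.60 and over, a class in which 96.6% of genes had such a peak.

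Most mammalian promoters lie in CpG islands, stretches that keep their CpG dinucleotides and are usually free of DNA methylation and open in many tissues. Promoters outside islands have lost most CpGs, tend to be methylated where the gene is silent, and often belong to genes used by a few cell types. DNase I cuts DNA where nucleosomes are displaced, so a peak marks a promoter or another regulatory element that is accessible in some of the cells. In whole tissue, a peak in fewer cells and weaker opening in each cell cannot be told apart.

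Sequences of 8 peaks are shown to make the CpG content visible, and 5 more for the motifs they carry. Bases are those of GRCm38.p6, the same assembly as mm10, read 5′ to 3′ on the strand of the gene, and stretches inside annotated exons were left out, so a line can be shorter than the peak. CpG dinucleotides are in capitals in the following lines. Syn3 (synapsin III, a synaptic vesicle protein), Stmn4 (a stathmin of neurons), Fabp7 (the fatty acid-binding protein of radial glia), Rsph14 (a radial spoke protein of motile cilia) and H2-Ab1 (an MHC class II beta chain) had their peak at the CpG-poor start itself. The Gapdh peak shown lies 104 bp upstream of its outermost start, while the Sub1 and Yipf6 peaks lie 912 and 915 bp downstream of theirs, in sequence that is richer in CpG. Rsph14 and H2-Ab1 were chosen after their values had been seen. The stretches left out also hold CpGs, so the lines understate some peaks. The whole peak held 11 CpGs at Syn3 (4 printed), 7 at Rsph14 (4 printed) and 3 at Fabp7 (2 printed). At Sub1 the whole peak held 12 (8 printed), close to Syn3, and at Yipf6 it held 18, all printed.
Syn3, chr10:86498883-86498965, minus strand: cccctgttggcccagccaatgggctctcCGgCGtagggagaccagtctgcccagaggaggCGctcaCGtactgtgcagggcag
Stmn4, chr14:66344196-66344303, plus strand: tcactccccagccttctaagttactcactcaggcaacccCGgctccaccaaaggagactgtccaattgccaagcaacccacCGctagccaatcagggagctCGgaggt
Fabp7, chr10:57784756-57784880, plus strand: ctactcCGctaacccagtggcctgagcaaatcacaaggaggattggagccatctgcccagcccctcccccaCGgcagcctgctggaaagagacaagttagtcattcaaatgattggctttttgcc
Rsph14, chr10:75032587-75032665, minus strand: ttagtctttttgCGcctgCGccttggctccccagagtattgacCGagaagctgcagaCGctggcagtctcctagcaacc
H2-Ab1, chr17:34263116-34263208, plus strand: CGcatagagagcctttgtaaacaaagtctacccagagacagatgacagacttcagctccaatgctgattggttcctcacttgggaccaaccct
Gapdh, chr6:125166496-125166645, minus strand: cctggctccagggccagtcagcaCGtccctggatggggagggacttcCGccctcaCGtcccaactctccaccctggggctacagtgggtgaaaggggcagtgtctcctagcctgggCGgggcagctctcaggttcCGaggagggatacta
Sub1, chr15:11996059-11996145, minus strand: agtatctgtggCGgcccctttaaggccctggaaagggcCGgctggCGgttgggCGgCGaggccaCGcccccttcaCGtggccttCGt
Yipf6, chrX:98937156-98937305, plus strand: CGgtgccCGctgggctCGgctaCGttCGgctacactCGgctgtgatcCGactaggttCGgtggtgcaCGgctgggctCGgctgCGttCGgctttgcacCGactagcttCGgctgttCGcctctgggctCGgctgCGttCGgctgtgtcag

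The next 5 lines show peaks with a consensus match in capitals, which is the CTCF letters at Amigo3 (an adhesion protein of neurites), REST at Drd3 (the dopamine receptor D3), RFX at Kdm6b (a histone H3 demethylase), NFI at Syn3 and TATAAA at Adamtsl2 (a matrix protein). A match describes the letters and not a bound factor.
Amigo3, chr9:108052996-108053145, plus strand: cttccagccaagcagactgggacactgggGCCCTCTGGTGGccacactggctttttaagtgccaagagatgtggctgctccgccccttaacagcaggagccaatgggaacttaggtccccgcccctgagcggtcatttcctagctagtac
Drd3, chr16:43753876-43754025, plus strand: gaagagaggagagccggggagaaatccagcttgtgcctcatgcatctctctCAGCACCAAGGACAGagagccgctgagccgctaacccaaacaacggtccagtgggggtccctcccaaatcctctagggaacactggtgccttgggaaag
Kdm6b, chr11:69413716-69413865, minus strand: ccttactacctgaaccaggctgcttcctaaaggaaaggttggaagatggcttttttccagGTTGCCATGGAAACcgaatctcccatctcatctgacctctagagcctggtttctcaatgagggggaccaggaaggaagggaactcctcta
Syn3, chr10:86498196-86498345, minus strand: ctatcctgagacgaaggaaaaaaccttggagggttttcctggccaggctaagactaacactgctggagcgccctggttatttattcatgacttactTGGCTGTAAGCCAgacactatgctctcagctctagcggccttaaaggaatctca
Adamtsl2, chr2:27079236-27079378, plus strand: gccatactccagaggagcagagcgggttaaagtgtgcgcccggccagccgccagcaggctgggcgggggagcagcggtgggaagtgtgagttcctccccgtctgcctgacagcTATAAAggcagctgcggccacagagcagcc

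Few CpG-poor promoters were open in both libraries. Of 7788 CpG-poor genes, 869 or 11.2% had a shared promoter peak (95% Wilson interval 10.5 to 11.9%), beside 52.3% of all 21938 protein-coding genes (58.0% in replicate 1 and 53.6% in replicate 2). Genes with a ratio of 0.35 to 0.60 had one in 66.1% of 3734 and genes with a ratio of 0.60 and over in 78.1% of 10416. The bar on neighbouring starts touched the classes unequally. It removed the only shared peak of 71 CpG-poor genes (0.912%) and of 1909 genes with a ratio of 0.60 and over (18.3%). With any shared peak within 1 kb counted, the shares were 12.1% and 96.4%. Here and below, a promoter peak is one assigned to the outermost start of the gene. A gene without one can still have a peak at another of its starts. With any start of the gene counted, 15.5% of CpG-poor genes had a shared peak. Intervals over genes or peaks cover counting error only, and with 1 group of 2 libraries no difference between gene classes was tested.

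The share of genes with a promoter peak differed more between the 2 libraries at CpG-poor promoters than at CpG-rich ones. In replicate 1 alone 1542 CpG-poor genes (19.8%) had a promoter peak, and in replicate 2 alone 1000 (12.8%). The shares for ratios of 0.60 and over were 80.7% and 79.1%. Among CpG-poor genes 641 had a peak in replicate 1 and none in replicate 2, 99 the reverse, 35 had peaks in both that did not overlap, and 6147 had none in either. The 641 include 3 of the 869, whose replicate 2 peak overlapped but was not itself assigned to the gene. How strong a peak was went with whether it was shared. Peaks at CpG-poor promoters in the lowest score quartile of replicate 1 overlapped a replicate 2 peak in 10.1% of cases, those in the next quartiles in 24.6% and 58.8%, and those in the highest in 95.6%. At promoters with a ratio of 0.60 and over the same quartiles gave 21.5%, 38.1%, 60.4% and 90.8%. From the side of replicate 2 the shares at CpG-poor promoters were 40.4%, 74.6%, 91.2% and 99.0%. At promoters with a ratio of 0.60 and over they were lower in each quartile, at 30.1%, 53.0%, 74.8% and 96.7%. Over all quartiles of replicate 2 the shares were 77.4% and 78.9%. A strong peak at a CpG-poor promoter was thus shared about as often as a strong peak at a CpG-rich one.

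**Figure D1:**
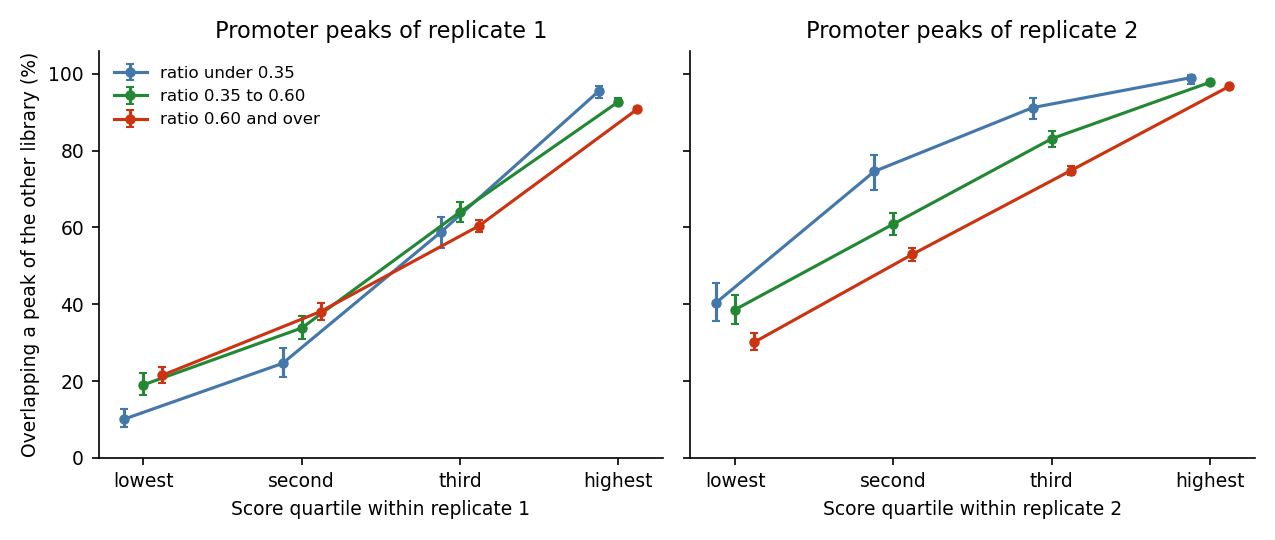
Share of promoter peaks of replicate 1 (left) and replicate 2 (right) that overlap a peak of the other library, in % on the y axis, against the score quartile within the library, for 3 classes of promoter CpG ratio, with 95% Wilson intervals. At CpG-poor promoters the share climbed from 10.1% in the lowest to 95.6% in the highest quartile of replicate 1.

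Large families of chemosensory receptors and predicted genes fill much of the denominator. Olfactory receptors made up 1126 of the CpG-poor genes and 10 of them (0.888%) had a shared peak, vomeronasal and taste receptors had 2 of 381 (0.525%), and predicted genes with Gm numbers 26 of 1117 (2.33%). Without them, but with the 16 trace amine-associated and formyl peptide receptor genes of the second family kept, 831 of 5180 CpG-poor genes were called (15.1 to 17.1%).

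The peaks were laid out around the start much as at other promoters. The median midpoint lay 4 bp upstream of the outermost start, 475 peaks (41.4%) lay within 150 bp of it, and 461 of the 869 genes (53.0%) had such a peak. A further 246 peaks (21.4%) lay 500 bp or more downstream. At promoters with a ratio of 0.60 and over, 43.8% of shared peaks lay within 150 bp and 21.3% 500 bp or more downstream, and at those with 0.35 to 0.60, 46.4% and 19.3%. By annotation 579 peaks (50.4%) were upstream of the gene, 277 (24.1%) in an untranslated exon, 252 (22.0%) in an intron and 40 (3.48%) in a coding exon. Most genes, 653, had 1 such peak, 169 had 2, 36 had 3, 6 had 4 and 5 had 5. The 5 genes with the most were Kcnc2 (a voltage-gated potassium channel), Zfp442, Pakap, Gm15446 and A630089N07Rik. Neighbouring peaks are not independent, since 44 of the 1148 overlapped another and they paired with 1135 different replicate 2 peaks.

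Many of the downstream peaks sat in sequence that was not CpG-poor. The ratio computed over 1 kb around the peak itself was under 0.35 for 94.9% of the peaks within 150 bp of the start, but for 51.2% of those 500 bp or more downstream, where 19.9% reached 0.60. Another annotated start of the same gene was nearer than the outermost one for 123 of these 246 downstream peaks and for 7.58% of those within 150 bp. Gapdh, the glycolytic enzyme gene, shows both kinds. Its peak at the CpG-poor outermost start scored 71 in replicate 1 and 34 in replicate 2, while its peak 756 bp downstream, where the ratio was 0.590, scored 141 and 108. Unc45a (a myosin chaperone) likewise had scores of 103 and 50 at 26 bp upstream and of 143 and 114 at 734 bp downstream. In both genes the downstream peak was the higher one in both libraries. In all, 902 peaks at 735 genes had a ratio under 0.35 around the peak as well, and 246 peaks at 197 genes did not.

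**Figure D2:**
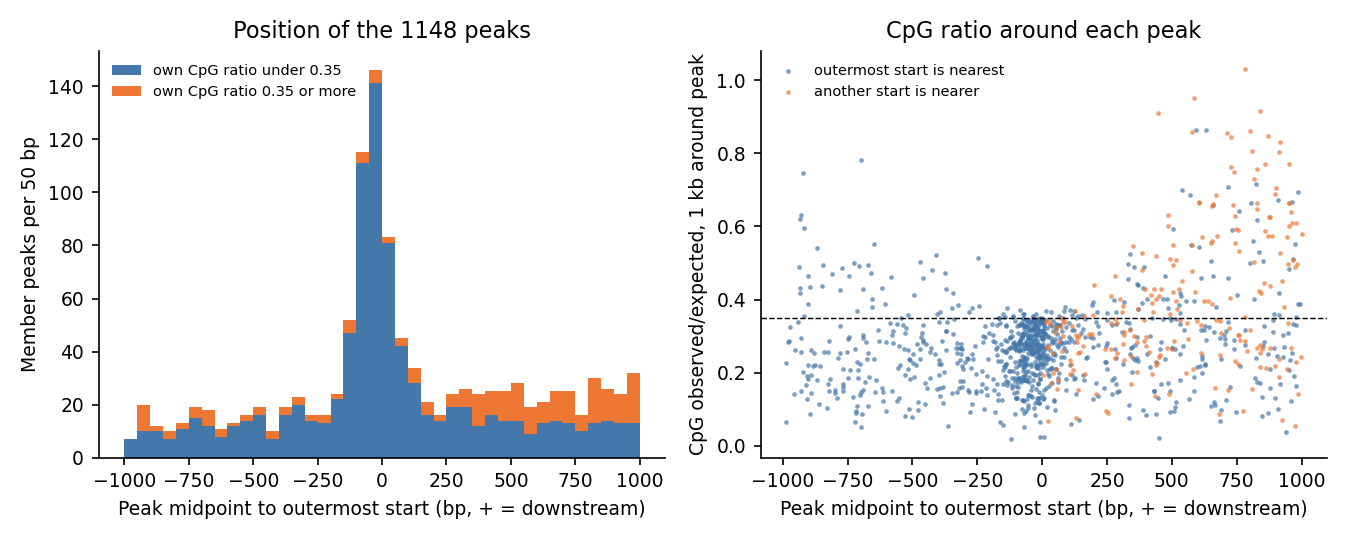
Left, number of peaks per 50 bp against the distance of the peak midpoint from the outermost start in bp (positive values downstream), split by the CpG ratio around the peak. Right, that ratio against the same distance for each peak, colored by whether another start of the gene was nearer, with the 0.35 threshold dashed. Peaks at the start lie under the line, and 19.9% of those 500 bp or more downstream reach 0.60.

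The deposited score is a whole number of unstated meaning, so it is read within each library. Over the 1148 peaks its median was 74.5 in replicate 1 (quartiles 55.0 and 99.0) and 38.0 in replicate 2 (26.0 and 55.2). Shared peaks at promoters with a ratio of 0.60 and over had medians of 109 and 68.0. As percentile ranks among all peaks of a library, the CpG-poor peaks had medians of 78.4 and 64.9 and the CpG-rich ones 93.4 and 86.9. The shared CpG-poor peaks thus ranked below the shared peaks at CpG-rich promoters. Ranks above the middle cannot be read as strength, because only shared peaks were kept and stronger peaks were shared more often. With unshared peaks included, peaks at CpG-poor promoters had median scores of 49.0 in replicate 1 and 31.0 in replicate 2. The medians over all peaks of these libraries were close to that, at 47.0 and 30.0. Scores of the 2 libraries went together with a Spearman correlation of 0.868 over the 1148 peaks, given as a description, since peaks are not replicates. Nearly all of them, 1140 or 99.3%, also lay in a hotspot, a wider region of enriched cutting, of both libraries, as did 99.5% of shared peaks in each of the other promoter classes. The hotspot q-value stood at its cap, a −log10 q of 100, in both libraries for 43.7% of the peaks, against 73.4% at promoters with a ratio of 0.60 and over. The cap was reached by 81.0% in replicate 1 and 44.7% in replicate 2.

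**Figure D3:**
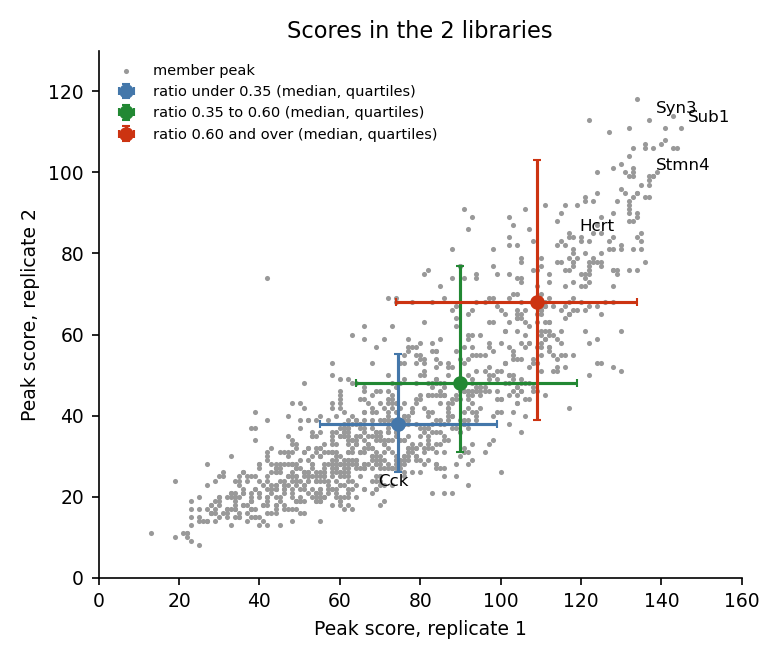
Peak score in replicate 2 against the score in replicate 1 for the 1148 peaks (gray points), with the median and quartiles of shared promoter peaks in 3 classes of promoter CpG ratio (colored crosses). Syn3, Stmn4, Sub1, Hcrt and Cck are labeled. The CpG-poor median lies at 74.5 and 38.0, and the median for ratios of 0.60 and over at 109 and 68.0.

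The 15 genes with the highest-ranked peaks fell into the same 2 kinds. Sub1 (a transcriptional coactivator) scored 145 in replicate 1 and 111 in replicate 2 at 912 bp downstream. Yipf6 scored 141 and 111 at 915 bp downstream, and Naa15, a subunit of the N-terminal acetyltransferase, 140 and 107 at 803 bp downstream. These peaks, like those of Unc45a, Gapdh, Madd, Mtmr2, Cish and Cabyr, lay nearer to another start of the gene. Around the start itself Syn3 scored 137 and 113, Tldc1 134 and 118, Akr1e1 (an aldo-keto reductase) 144 and 106, and Clstn3 (calsyntenin 3, a synaptic adhesion protein) 138 and 106. Mterf2 (a mitochondrial transcription factor relative) scored 136 and 107 there, and Grn (progranulin, a lysosomal and secreted protein) 139 and 100. The 5 lowest genes were Pcdhb9, Zfp988, Larp4, Gm13212 and Wdr49. Zfp988 had scores of 23 and 9, and Pcdhb9 of 22 and 10.

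Genes of neurons and of radial glia were often open at CpG-poor promoters. Over 6 lists of neural cell types, 36 of 85 CpG-poor genes had a shared peak, or 42.4% (32.4 to 53.0%), beside 11.2% of all CpG-poor genes. Over 6 lists of vascular, connective tissue and blood cells the share was 19 of 179, or 10.6% (6.90 to 16%), and over 6 lists of other tissues 25 of 290, or 8.62% (5.91 to 12.4%). In replicate 1 alone the 3 shares were 62.4%, 27.9% and 18.3%, and in replicate 2 alone 42.4%, 12.3% and 11.4%. The neural share was the highest in both libraries. The intervals of the other groups overlapped, in replicate 2 at 8.26 to 17.9% for vascular and blood and 8.22 to 15.6% for other tissues. With the CpG ratio taken over 250 bp on each side of the start, their shared-peak shares were in reverse order, at 8.82% and 9.03%. A peak within 150 bp of the start was found for 24 of the 36 open neural genes, 12 of the 19 vascular and blood genes and 6 of the 25 genes of other tissues, beside 53.0% of all 869.

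Of the pan-neuronal and synaptic list 8 of 11 CpG-poor genes were open. Stmn4 scored 137 in replicate 1 and 99 in replicate 2, and Stmn2, a stathmin that regulates microtubules in growing axons, 125 and 80. Celf3, a neuronal RNA-binding protein, scored 126 and 68 and Dcx, the microtubule protein doublecortin of migrating neurons, 104 and 45. Rbfox3, which encodes the neuronal nuclear antigen NeuN, was lower at 76 and 26. These peaks lay within 150 bp of the start. Each was the gene's strongest in both libraries, except that a peak of Rbfox3 254 bp upstream scored 61 and 29. Pvalb (parvalbumin) at 90 and 30 had its own 909 bp downstream, and Nlgn1 (neuroligin 1) at 117 and 68 had its strongest peak 931 bp upstream. Gng3, Mllt11 and Vgf were not called, and Gng3 had a shared peak that lay within 1 kb of the start of another gene.

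Of neuronal transcription factors 6 of 9 were open. The bHLH genes Neurod6 (107 and 58), Nhlh2 (83 and 45) and Neurod4 (62 and 37) and the LIM homeobox gene Lhx3 (89 and 64), which specifies motor neurons and certain interneurons, had peaks within 150 bp of the start, as did Myt1 (98 and 34). The strongest peak of Myt1l, at 127 and 83, lay 773 bp upstream. Nhlh1 and Esrrb had a promoter peak in replicate 1 and none in replicate 2, and St18 had none.

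Neuropeptides and enzymes of neuromodulators were open at 8 of 23 (34.8%), with 15 of 23 (65.2%) in replicate 1 alone and 7 (30.4%) in replicate 2 alone. Hcrt (hypocretin) had the highest replicate 2 score, with 118 and 84, at 1000 bp downstream, on the edge of the window. Ghrh scored 122 and 58 at 916 bp upstream and Pdyn (prodynorphin) 106 and 40 at 98 bp upstream. Slc6a9, the glycine transporter of glia, scored 101 and 61 at 745 bp downstream, and Cck, cholecystokinin, 68 and 21 at 17 bp upstream. Grp, Pnoc and Nppa made up the rest. Th, Ddc, Dbh, Chat and Tph1, which make catecholamines, acetylcholine and serotonin, had no promoter peak in either library, while Vip, Nts, Kiss1 and Hdc had one in replicate 1 and none in replicate 2. Tph2, also on that list, was not among its 23 CpG-poor genes and was not scored here.

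Of the astrocyte and radial glia list 8 of 12 were open, 7 of them within 150 bp of the start. Fabp7 scored 115 in replicate 1 and 78 in replicate 2. Ptn (pleiotrophin, a growth factor) scored 114 and 51, Aldoc (aldolase C) 106 and 44, and Sparcl1 105 and 48. Aldh1l1 (86 and 25), S100b (61 and 36) and Gpr37l1 (48 and 17) were lower. Agt, Hepacam and Acsbg1 had a peak in replicate 1 and none in replicate 2, and Aqp4, the water channel of astrocyte endfeet, had none. Of the oligodendrocyte and Schwann cell list 2 of 14 were open, both away from the start, among them Ermn (70 and 27). Mag, Mog and Mobp, genes of myelin, had no promoter peak in either library. Opalin and Gpr17 had one in replicate 1 and none in replicate 2, and Sox10 the reverse.

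Choroid plexus and cilia genes were open at 4 of 16, which were the water channel gene Aqp1 (92 and 45), Fam183b (92 and 23), Ttr (transthyretin, 66 and 22) and Kcnj13 (28 and 16). The peak of Ttr lay 951 bp downstream of the start. The other 3 had theirs within 150 bp. In replicate 1 alone 7 of the 16 had a promoter peak, as did 4 of the 14 oligodendrocyte and Schwann cell genes.

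Lists of vessels, connective tissue and blood depended on the library. In replicate 1 alone 12 of 29 endothelial, 6 of 10 mural, 13 of 22 meningeal and 9 of 45 myeloid genes had a promoter peak, beside 19.8% of all CpG-poor genes, and in replicate 2 alone 4, 2, 7 and 5. With a peak in both, endothelial genes had 4 of 29 (13.8%), namely Vcam1 (112 and 60), Clec14a (77 and 31), Gngt2 (75 and 34) and Lyve1 (60 and 23). Pecam1, Cdh5 and Emcn, which define endothelium, had no promoter peak in either library, and Tek and Tie1 had one in replicate 1 alone. Mural and smooth muscle genes had 2 of 10, Myh11 (72 and 36) and Vtn (55 and 30). Meningeal and matrix genes had 6 of 22 (27.3%), with Col1a1 highest at 115 and 90 in its gene body, followed by Ptgds (93 and 43), Sparc (92 and 37), Sp7 (80 and 45), Dcn (46 and 23) and Ogn (27 and 14).

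Microglia and myeloid genes had 5 of 45 (11.1%), all within 150 bp of the start. Tmem119 (74 and 27), P2ry12 (62 and 29) and Cd68 (58 and 22) are genes of microglia or macrophages, and Camp (74 and 47) and S100a8 (25 and 17) of neutrophils. Csf1r, Cx3cr1, Tyrobp and Aif1 had no promoter peak in either library, while Spi1, C1qa, C1qb and Mrc1 had one in replicate 1 and none in replicate 2. The lymphoid and platelet list had 1 of 46, Prf1, and the erythroid list 1 of 27, Gfi1b. The globin genes of the list had none in either library.

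Lists of tissues outside the brain ranged from 3.57% to 17.5%. Skeletal and heart muscle had 7 of 48 (14.6%), 1 of them within 150 bp of the start, with Ankrd2 highest at 110 and 67. Lens, retina, ear and pigment genes had 7 of 40 (17.5%), among them Otof (otoferlin, 105 and 46), Otoa (86 and 27), Rlbp1 (77 and 32) and Dct (64 and 29). Liver, plasma and gut genes had 4 of 86 (4.65%), secreted hormone, milk and saliva genes 3 of 51 (5.88%), germ line and placenta genes 3 of 40 and epidermal and epithelial genes 1 of 28 (3.57%, Muc1). In replicate 1 alone 13 of 48 muscle genes and 14 of 40 lens, retina, ear and pigment genes had a peak. Alb, the casein genes and Krt5 had no promoter peak in either library. Of 2 further lists, cytoskeletal, calcium-binding and surface genes had 5 of 11, among them Lgals1 (galectin 1, 95 and 46) and S100a4 (68 and 53), and immediate-early and stress genes 0 of 2. Across 13 alternative settings the share of the immediate-early and stress genes ran from 0 to 100%.

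**Figure D4:**
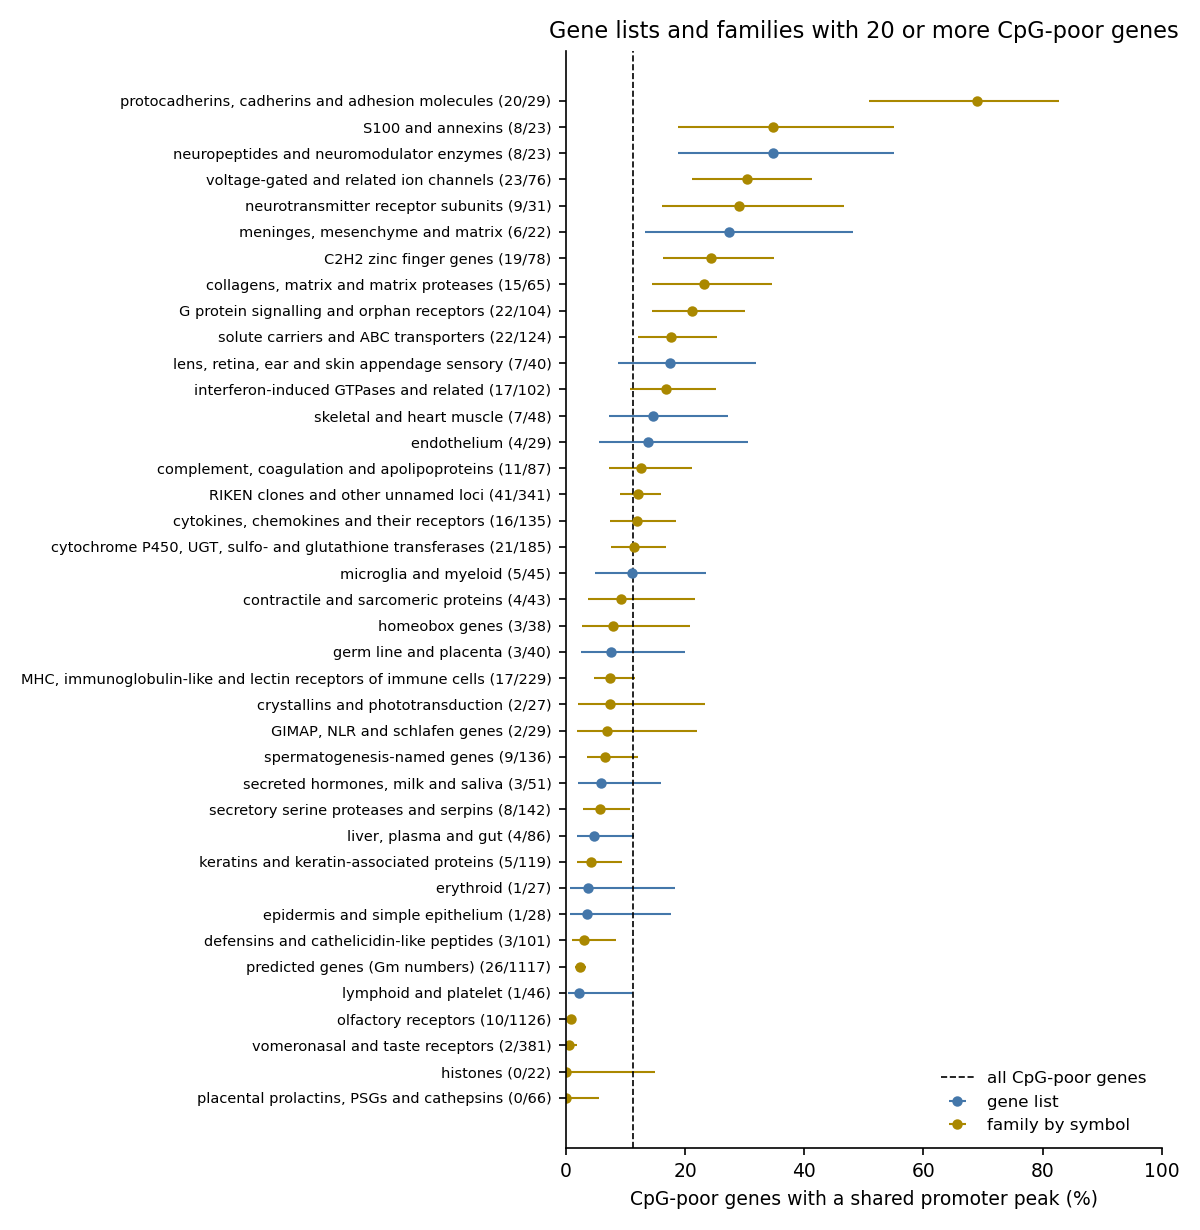
Share of CpG-poor genes with a shared promoter peak (x axis, %) for gene lists (blue) and symbol families (ochre) with 20 or more CpG-poor genes, with 95% Wilson intervals, numbers open and in all in parentheses, and the share over all CpG-poor genes dashed at 11.2%. Adhesion molecules stand highest at 69.0% and chemosensory receptors near 0.

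Families defined by gene symbol sort the open genes by protein type. Protocadherins, cadherins and other adhesion molecules were open at 20 of 29 (69.0%), ion channels at 23 of 76 (30.3%) and neurotransmitter receptor subunits at 9 of 31 (29.0%). A peak with a ratio under 0.35 around it was found for 16 of the 20, 18 of the 23 and 4 of the 9. A peak within 150 bp of the start was found for 12, 13 and 3, so most open receptor genes had theirs farther away. Lrrtm4 (124 and 59) and Lrrn3 (122 and 76), leucine-rich repeat proteins of the neuronal surface, had the highest replicate 1 scores of the first family. Kcnj9, a subunit of G protein-gated potassium channels, scored 120 and 68 and Cacng8, an auxiliary subunit of AMPA receptors, 118 and 78. Among transmitter receptors the subunits Htr3a (115 and 55) and Gria1 (106 and 48) were among those with higher scores in replicate 1 and Htr1d (36 and 21) had the lowest. G protein and orphan receptor genes were open at 22 of 104 (21.2%), with Gpr22 at 125 and 65, and solute carriers and ABC transporters at 22 of 124 (17.7%). In replicate 1 alone the shares of these 5 families were 79.3%, 43.4%, 51.6%, 37.5% and 31.5%, beside 19.8% of all CpG-poor genes.

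The adhesion family includes 9 beta protocadherins, neighbours in 1 gene cluster that mark neuronal identity on the cell surface, and the 9 CpG-poor ones were all open. Their peaks were weak. Pcdhb20 had the highest replicate 2 score among them with 43 and 23, and Pcdhb9 the lowest with 22 and 10. Without these 9 the family had 11 of 20 genes open (55.0%). At the setting that kept peaks at or above the median score of each library, no beta protocadherin remained.

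Families of transcription factors and of the matrix ranged from 7.89% to 44.4%. C2H2 zinc finger genes were open at 19 of 78 (24.4%), among them Zfp120 at 133 and 94 and Zfp93 at 130 and 96, and a median over the 19 of 115 and 72.0 against 80.0 and 41.0 over all 869 genes, each gene taken at its highest-ranked peak. The bHLH and SOX family had 4 of 9 (44.4%), where Hes3 (83 and 21) joined the 3 bHLH genes above, and homeobox genes 3 of 38 (7.89%), among them Lhx3 and Pou2f3. Collagens, matrix proteins and matrix proteases had 15 of 65 (23.1%) and S100 proteins, annexins and galectins 8 of 23 (34.8%).

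Immune, secreted, metabolic and remaining families ranged from none to 2 of 8 genes open, beside 11.2% of all CpG-poor genes. Interferon-induced genes were open at 17 of 102 (16.7%), complement and coagulation genes at 11 of 87 (12.6%), cytokines and chemokines at 16 of 135 (11.9%), and immune receptors with MHC genes at 17 of 229 (7.42%). Cytochrome P450 and related enzymes were open at 21 of 185 (11.4%), RIKEN clones at 41 of 341 and the mitochondrial respiratory chain at 2 of 8. Contractile proteins had 4 of 43 (9.30%), crystallins and phototransduction genes 2 of 27 (7.41%), GIMAP, NLR and schlafen genes 2 of 29 (6.90%), and spermatogenesis genes 9 of 136 (6.62%). Secretory proteases and serpins had 8 of 142 (5.63%), keratins 5 of 119 (4.20%), defensins and related peptides 3 of 101 (2.97%), and histones, ribosomal proteins and placental families none of 22, 8 and 66.

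The lists and families cover 395 of the 869 genes. To describe the other 474, 13 lists were drawn up from symbols and descriptions after the open genes had been read, so their shares support nothing and are given as a guide to what the peaks mark. Synapse and neurite proteins were open at 23 of 30 CpG-poor genes, among them Syn3, Clstn3, Camk2a (125 and 78), the calcium-dependent kinase of synapses, Camk1g (122 and 78), and Sv2a (116 and 67), a synaptic vesicle protein. Genes of the axoneme, the microtubule core of cilia and flagella, were open at 16 of 25, 15 of them within 150 bp of the start. Rsph14 scored 135 and 97, Cfap44 123 and 93, Catip 118 and 80, Iqub 117 and 65 and Ttc29 107 and 48. Rsph10b was lowest in replicate 1 with 45 and 31. This list shares Fam183b with the choroid plexus and cilia list.

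Lysosomal genes were open at 9 of 17, with Grn, Dpp7 (121 and 93) and Tpp1 (118 and 78) at the start. Peptide receptors were open at 8 of 14, with the nociceptin receptor Oprl1 at 120 and 72 and the kappa opioid receptor Oprk1 at 98 and 50. MHC class II genes and the invariant chain were open at 6 of 10. H2-Eb1 scored 108 and 83, H2-Ab1 88 and 81, H2-Aa 77 and 57 and Cd74, the invariant chain, 31 and 25. Class II molecules present antigen to T cells. Sodium, potassium and calcium transport was open at 17 of 56 and interferon response at 16 of 84. Kinases and phosphatases were open at 38 of 144 (26.4%), small GTPase regulators at 12 of 49, ubiquitin, F-box, kelch and TRIM proteins at 21 of 95, dehydrogenases and other redox enzymes and synthases at 34 of 143 (23.8%), and RNA and DNA processing at 14 of 61.

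Base composition and consensus letters were compared with other shared peaks. The CpG-poor promoter peaks had a median GC content of 55.3%, beside 66.0% at promoters with a ratio of 0.60 and over and 52.0% over all 111722 shared peaks. Letters found in CpG-rich promoters were scarcer than at those promoters. The GC box GGGCGG was in 16.3% of the peaks, against 47.8% at CpG-rich promoters and 14.9% over all shared peaks, and the NRF1 consensus was in 1.05%, 5.97% and 1.49%. The ETS letters CCGGAAGT were in 0.523%, 4.14% and 1.03%. These motifs contain CpG themselves, and both strands were searched throughout.

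CTCF, NFI, E-box and homeodomain letters were more frequent than at CpG-rich promoters. The CTCF consensus was in 7.23% of the peaks, 2.01% at CpG-rich promoters and 9.36% over all shared peaks. The NFI palindrome was in 3.40%, 0.495% and 2.70%, and the E-box CAGCTG in 17.1%, 8.26% and 14.8%. The E-box CAGATG was in 12.4%, 5.44% and 14.9% and the homeodomain core TAATTA in 2.44%, 0.810% and 5.41%. Other letters were as follows, with the 3 sets in the same order. SOX letters ACAANGG were in 8.54%, 5.03% and 8.65%, AP-1 letters TGANTCA in 4.27%, 1.97% and 4.28%, and the octamer ATGCAAAT in 1.22%, 0.553% and 1.50%. GATA letters AGATAAG were in 1.39%, 0.630% and 1.07%, TEAD letters CATTCCA in 2.09%, 1.03% and 2.52%, and the interferon and MEF2 consensus in 1.66% and 2.61%, beside 1.40% and 1.86% of all shared peaks. CRE letters TGACGTCA were in 1.13%, 2.11% and 0.746%, and YY1 letters AAGATGGC in 0.610%, 2.02% and 1.27%. The CCAAT box was the most even of those in over 10% of peaks, at 22.7%, 21.2% and 20.5%, and reached 28.0% (24.2 to 32.2%) of the peaks within 150 bp of the start. The REST consensus matched 3 peaks (0.261%, beside 0.184% of all shared peaks), those of Drd3, Lhx3 and Olfr464.

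**Figure D5:**
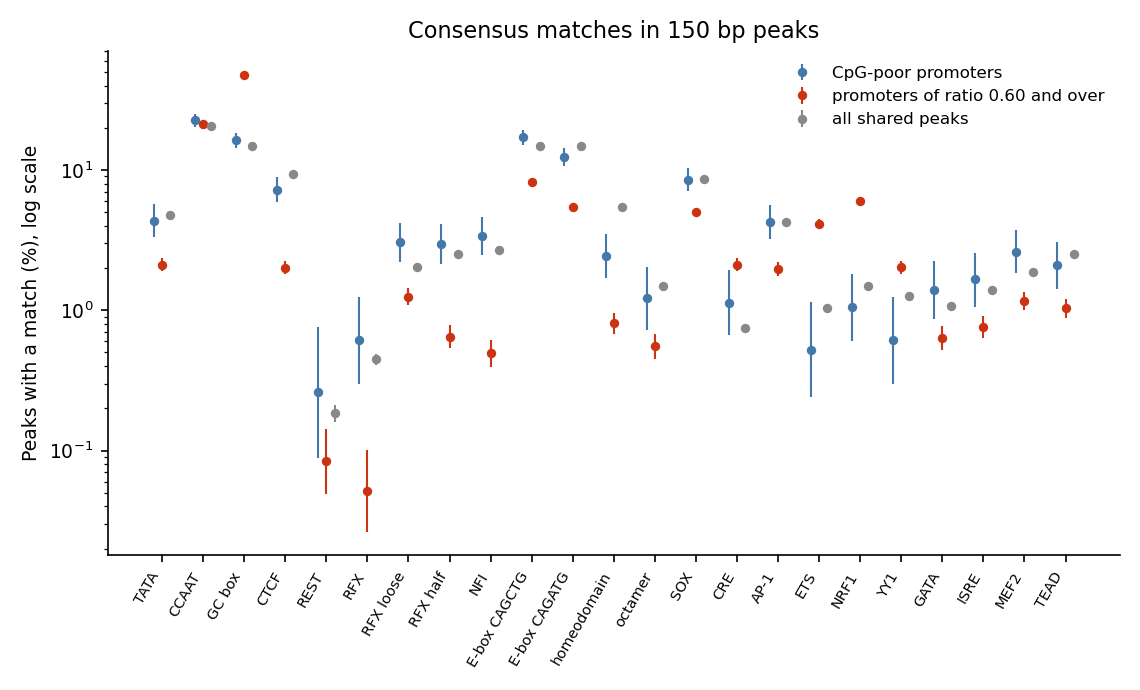
Share of 150 bp peaks with a consensus match on either strand (y axis, %, log scale) for 23 motifs, at CpG-poor promoters (blue), promoters with a ratio of 0.60 and over (red) and all shared peaks (gray), with 95% Wilson intervals. The GC box stands at 16.3% and 47.8% in the first 2 sets and the NFI palindrome at 3.40% and 0.495%.

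RFX factors are known to control genes of motile cilia, so their letters were also counted in the 17 peaks of the 16 open axonemal genes. The full RFX palindrome was in none of them and in 7 of the 1148 peaks (0.610%), beside 0.447% of all shared peaks. A looser form of the palindrome with more free positions, tried after that, was in 1 of 17, beside 3.05% of the 1148 peaks and 2.03% over all shared peaks. The shorter site CATGGNAAC was in 3 of 17 (17.6%, interval 6.19 to 41.0%), beside 2.96% and 2.52%. Of the 475 CpG-poor promoter peaks within 150 bp of the start, where most axonemal peaks lay, 4.63% held the shorter site. The shorter site is contained in the full palindrome.

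A TATA box in its usual place was rare. TATAAA on the gene's strand between 40 and 20 bp before the outermost start was found for 23 of the 869 open genes (2.65%, 1.77 to 3.94%), for 4.96% of the 6919 CpG-poor genes without a shared peak, for 0.701% of genes with a ratio of 0.60 and over and for 2.23% of all genes. Anywhere within the peak it was in 4.36% of the 1148 peaks and 4.79% of all shared peaks.

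Open CpG-poor genes also had more open distal sites around them than the other CpG-poor genes. Distal sites were shared peaks over 1 kb from every protein-coding start, so peaks at non-coding starts were counted. Their median number within 50 kb was 4 (quartiles 2 and 7) for the 869 genes and 1 for the 6919 others. With chemosensory receptors and Gm-numbered genes left out it was 3 for 4349 others. No such site was found for 8.29% of the open genes, 38.3% of the others and 20.8% of the others without those families. Open genes with a ratio of 0.60 and over had a median of 4, the same as open CpG-poor genes. Neighbouring genes can count the same distal site.

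The CpG threshold cuts a continuous scale. Just under 0.35 lay Fam13a (0.3494, scores 128 and 76), Grm4 (0.3494, 74 and 68), Myt1l (0.3495, 127 and 83) and Slc2a10 (0.3497, 67 and 43). Elf3 (120 and 79) lay at the threshold, and Zfp108 (0.3501, 126 and 88), Nrip2 (0.3504, 89 and 49) and Zfp457 (0.3508, 132 and 93) lay just over it.

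A few peaks ranked differently in the 2 libraries. Relative to replicate 1, Chadl (88 and 21), Spp2 (86 and 21), Plcd4 (70 and 18), Hes3 and Fam183b ranked lower in replicate 2. Tlr1 (19 and 24), A930004D18Rik (27 and 28), Alox12e (33 and 30), Tbc1d21 (38 and 37) and Dusp13 (39 and 41) ranked higher there. The 10 were named for this difference, which is a description of 2 libraries.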

How the data were processed

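DNase-seq of 2 hindbrain libraries was available as peaks and hotspots, which the authors made separately for each replicate from filtered mm10 alignments, per the deposited notes. Aligner, caller, thresholds and depth were not found in the notes or labels. The deposited peak score is a whole number of unstated meaning. Hotspots carry a deposited −log10 q, which runs up to 100, taken as a cap. Features off the assembled nuclear chromosomes were left out (253 and 303 peaks). Starts came from the basic set of GENCODE M21 and sequence from GRCm38.p6, through Python 3.11.15, numpy 2.4.6, pandas 2.3.3, pysam 0.24.0 and samtools 1.23.1. Shares carry 95% Wilson intervals (scipy 1.17.1). Overlap, assignment and the CpG ratio were checked on simulated data.

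The peak set, gene lists and motifs were chosen with earlier results of these data known. The 20 lists and 30 symbol families were written from general knowledge, the 23 motifs after the files had been opened, and 13 lists and a loose RFX pattern after results had been seen. Named genes were the 15 highest-ranked and 5 lowest, list genes, genes of small families, those next to the threshold, with most peaks, with the largest rank differences, or highest-ranked for a motif. Other names, among them those of the added lists and of larger families, were chosen after their values were seen. With 1 group of 2 libraries no test was made. A few named genes are not reported here. Alternatives are given below.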

Additional observations from a re-analysis of the deposited data

How the results depend on the processing

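The share of CpG-poor genes with a shared promoter peak moved with the definition. It was 8.40% with a window of 500 bp, 8.96% with a ratio under 0.30, 13.9% under 0.40, 15.5% (2037 peaks) with any start of the gene, 7.78% (748 peaks) with peaks at or above their library's median score, and 12.6% with hotspots. With either library alone it was 12.8 to 19.8%, with 1507 to 2320 peaks and 1000 to 1542 genes. For neural, vascular and blood, and other lists these gave 42.4 to 62.4%, 12.3 to 27.9% and 11.4 to 18.3%. The stronger peaks gave 6.15% for vascular and blood and 4.48% for other tissues, and the 500 bp window 4.48% for other tissues, a median distance of -18.0 bp and 42.3% of peaks downstream. Peaks in hotspots of both libraries made up 100% with an overlap of 50% or with replicate 2 positions. Peaks at the q cap made up 46.9% with an overlap of 50% and 39.8% with a ratio under 0.30, which gave a replicate 1 median score of 71.0. Of 2 settings chosen after seeing the data, peaks within 150 bp of the start left 475 peaks and 461 genes (5.92%), with 28.2%, 6.70% and 2.07% in the 3 list groups, and a ratio under 0.35 around the peak gave 9.44%. The neural share stayed above that of all CpG-poor genes under all 13 alternatives, the vascular and blood share under 3 and that of other tissues under 0. In all, 81 of 113 such values and 815 of 934 values of single lists and motifs stayed within their interval or 1.5 times the count. The intervals of small lists are wide, at 35.4 to 87.9% for neuronal transcription factors, and the settings share peaks. Staying inside therefore says little about stability for them. No paired analysis was possible because the design holds 1 group. Depth is not given in the sources used here, so an uncalled promoter is not shown to be closed.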
